A study of Mus musculus with 6 samples.

Results

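The fibroblast growth factor (FGF) genes of cultured mouse tail tip fibroblasts are described here: the ligands, the receptors, the inhibitors that feed back on the pathway and a pair of transcription factors that it induces. The members were the genes whose symbol on the array is *Fgf* or *Fgfr* with a number, together with *Fgfrl1*, the 4 Sprouty genes, the 3 Spred genes, *Dusp6*, *Etv4* and *Etv5*, and all values are the deposited log2 values, called levels below. This rule found 37 members among the 18193 genes measured, with 84 probe sets between them, and each gene stands for the one of its probe sets that averaged highest on the 6 arrays. The members were 22 ligands, 5 receptors, 8 feedback inhibitors and 2 ETS factors. The samples were neonatal tail tip fibroblasts of *Hotair* knockout mice (3 arrays) and of mice wild type for *Hotair* (3 arrays), all backcrossed to C57BL6. *Hotair* is a long noncoding RNA of the Hoxc cluster, and the series title links its disruption to homeotic changes and to imprinted genes; what it did to FGF genes is not stated. The labels give neither the allele, nor the number of animals or cultures behind the arrays, nor passage or treatment, so the spread between arrays of a genotype may be technical. *Hotair* itself was not analysed here, so the genotypes stand as labelled and were not checked against their target.

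FGFs are secreted proteins that bind receptor tyrosine kinases together with heparan sulfate, and the bound receptors signal through the adaptor FRS2, RAS and the ERK kinases. The pathway restrains itself: ERK signalling induces *Dusp6*, a phosphatase that inactivates ERK, and the Sprouty and Spred proteins, which act on the relay between receptor and RAF. In skin and limb, mesenchymal cells make FGF7 and FGF10, which act on a splice form of FGFR2 carried by epithelium, while fibroblasts themselves carry FGFR1 and grow in response to FGF2. Fibroblasts in culture therefore hold both senders and receivers of the signal.

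Array medians ranged from 5.57 to 5.68. Replicate 1 of both genotypes stood apart: on the first principal component these arrays lay at −82.7 (knockout) and −114.7 (wild type), against 39.3 to 74.7 for the 4 others. The mean level of 11 proliferation genes was 8.86 on knockout replicate 1 and 8.24 on wild-type replicate 1, against 10.93 to 11.17 on the others. On knockout replicate 1 the 3′ control probe set of *Gapdh* exceeded the 5′ one by 0.75, a sign of RNA degradation, and on the other arrays the difference was at most −0.03. All 12 fibroblast markers were measured and all had a mean level of at least 6, while 7 of 7 endothelial, 7 of 9 skeletal muscle, 5 of 9 leukocyte, 5 of 9 keratinocyte and 2 of 8 cartilage markers stayed under 6 on every array. The cartilage regulators *Sox9* and *Sox5* reached 9.72 and 8.17, both on wild-type arrays. The keratinocyte marker *Dsp*, a desmosome protein, had levels of 5.49, 3.58 and 3.70 in knockout and 6.43, 6.74 and 6.18 in wild type. The leukocyte marker *Cd14* had levels of 7.89, 5.87 and 5.75 in knockout and 8.17, 8.35 and 8.89 in wild type. *Dsp* and *Cd14* were separate between genotypes, at −2.20 ± 0.54 and −1.97 ± 0.61 (SE; limma adjusted p = 0.743 for each), and *Acta1*, a muscle actin, stood at −2.27 ± 1.59 with overlap. Each had the lowest difference of its list. Of the 9 leukocyte markers 5 lay above 0 and 4 below, with a median difference of 0.08 and a highest of 1.21. The keratinocyte markers had 4 above and 5 below (median −0.01), and the skeletal muscle markers 2 above and 7 below (median −0.03). The mean level of the fibroblast markers was 12.36, 12.87 and 12.74 on the knockout arrays and 11.99, 10.77 and 11.56 on the wild-type arrays. These ranges did not overlap, but the markers did not move as one. Of the 12, 9 had differences above 0, the highest *Dcn* at 3.10, and 3 below. Those below were *Vim*, *Fn1* and *S100a4*, at −0.24, −0.18 and −0.09, with the groups separate for *Vim*. In bulk RNA fewer cells of a type and less RNA per cell cannot be told apart. The part of proliferation, RNA degradation and markers of fibroblasts and other cell types in the differences below was not tested.

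On the full set of 6 arrays no FGF gene reached significance between knockout and wild type. By limma with Benjamini-Hochberg adjustment over 18193 genes, 0 of the 37 members had an adjusted p under 0.05, as for the table as a whole (0 genes, 0% called). At an unadjusted p under 0.05 stood 4 members, *Fgfr2* and *Spry3* on the higher side in knockout and *Fgf2* and *Dusp6* on the lower side, which compares with 6.68% of all genes (4.01% higher and 2.67% lower). The genotypes did not overlap for 4 members, *Fgfr2* and *Spred1* above and *Fgf2* and *Dusp6* below, against 9.93% of all genes (5.56% above and 4.38% below). Both counts make 10.8% of the members, near those shares. Among the 14 members with a mean of at least 6, 2 had an unadjusted p under 0.05, against 10.1% of all such genes, and 3 separated the genotypes, against 11.2%. The knockout was on the same side in all 3 replicate numbers for 7 members above and 6 below, where 30.5% of all genes had one direction in all 3 (17.1% above and 13.4% below). With the replicate number as a block, 5 members had an unadjusted p under 0.05 (*Fgf2*, *Fgf5*, *Fgf14*, *Fgfr2* and *Dusp6*), where 11.1% of all genes did. Of the members 16 lay above 0 and 21 below, and their median difference was −0.05, where the median of all genes was 0.01.

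**Figure D1:**
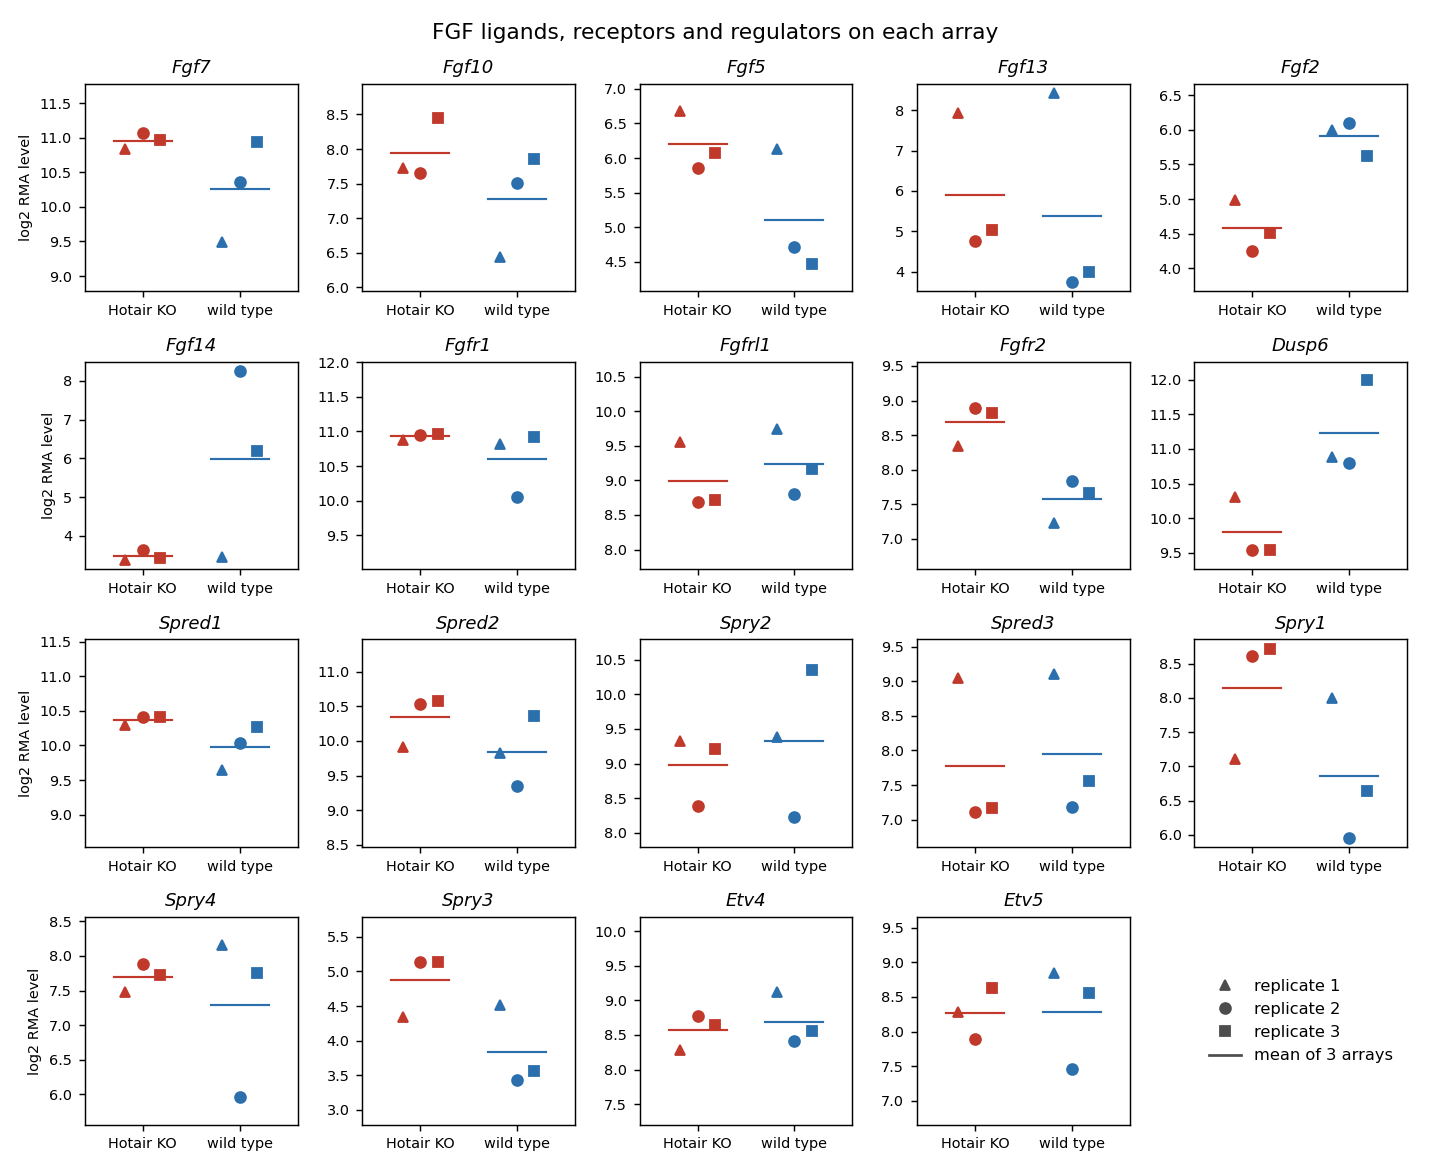
Level (log2) of the 19 members with a mean of at least 6 or a difference of at least 0.5, on each array. Triangles, circles and squares are replicates 1, 2 and 3, and lines are the means of 3 arrays. *Fgf2*, *Fgfr2*, *Dusp6* and, narrowly, *Spred1* separate the genotypes on all 6 arrays, while *Fgf13* and *Spred3* are high on replicate 1 of both.

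Among the ligands, the best separated was *Fgf2*, which codes for basic FGF, a mitogen of fibroblasts that is stored in the matrix. Its level was 4.98, 4.24 and 4.52 on the knockout arrays, against 5.99, 6.09 and 5.63 on the wild-type arrays. All 3 knockout values lay below all 3 wild-type values. The difference was −1.32 ± 0.24 (SE), a level 2.50-fold lower in knockout, with an unadjusted p of 0.0017, rank 19 of all genes, and an adjusted p of 0.743 by limma. The difference had the same sign within each replicate number (−1.01, −1.85 and −1.11). The gene has 1 probe set, and its level lay near or under the array medians, where RMA compresses differences.

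The paracrine ligands *Fgf7* and *Fgf10*, which mesenchyme sends to epithelium, were measured well above the array median. *Fgf7* had levels of 10.84, 11.07 and 10.96 in knockout and 9.49, 10.36 and 10.94 in wild type. The knockout arrays were alike and the wild-type arrays spread widely, with wild-type replicate 3 inside the knockout range. The difference was 0.69 ± 0.37 (SE; limma adjusted p = 0.797). A second probe set of *Fgf7* differed by 0.40, with levels of 8.74, 11.02 and 10.16 in knockout and 8.84, 10.02 and 9.85 in wild type. On that probe set the knockout arrays spread more widely, and knockout replicate 1 was the lowest array. *Fgf10* had levels of 7.72, 7.66 and 8.45 in knockout and 6.45, 7.52 and 7.86 in wild type. The groups overlapped, and wild-type replicate 1 was the lowest array for both genes on the probe sets used. For *Fgf10* the difference was 0.67 ± 0.42 (SE; adjusted p = 0.835). Without wild-type replicate 1 the differences were 0.31 for *Fgf7* and 0.26 for *Fgf10*.

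*Fgf5*, a ligand known for ending the growth phase of the hair cycle, had levels of 6.68, 5.86 and 6.08 in knockout, against 6.14, 4.71 and 4.47 in wild type. Replicate 1 was the highest array of each genotype, and it is the wild-type replicate 1 value that overlaps the knockout range. The difference was 1.10 ± 0.49 (SE; limma adjusted p = 0.760) and lay above 0 within each replicate number, at 0.54, 1.15 and 1.6. A second probe set of *Fgf5* differed by 0.33, with levels of 5.03, 5.52 and 5.65 in knockout and 5.52, 4.91 and 4.76 in wild type. On it the knockout was lower within replicate 1, where it was the lowest knockout array, and higher within replicates 2 and 3.

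*Fgf13* and *Fgf14* belong to a branch of the family that is not secreted but works inside cells, where its members bind voltage-gated sodium channels. *Fgf13* had levels of 7.92, 4.76 and 5.04 in knockout and 8.42, 3.75 and 3.99 in wild type. It was high on replicate 1 of both genotypes and low on the 4 other arrays, a range of 4.67 among the wild-type arrays, against which the genotype difference of 0.52 ± 1.51 (SE) was small. Within replicates 2 and 3 the knockout level was higher by 1.01 and 1.05. Its second probe set was at the bottom of the scale, with levels of 4.61, 3.72 and 4.23 in knockout and 4.25, 4.11 and 4.08 in wild type. Replicate 1 was again the highest array of each genotype, by far less, while knockout replicate 2 lay below all wild-type arrays. *Fgf14* showed another pattern, with 3.38, 3.63 and 3.44 in knockout and 3.45, 8.25 and 6.20 in wild type. It was at the bottom of the scale on 4 arrays and high on wild-type replicates 2 and 3. The difference was −2.49 ± 1.16 (SE; limma adjusted p = 0.766), and −1.34 without wild-type replicate 2 and −3.74 without wild-type replicate 1. Its 3 other probe sets differed by −1.0, −0.71 and −0.24. The probe set at −0.24 did not repeat the pattern, with levels of 3.71, 3.56 and 3.79 in knockout and 4.09, 3.70 and 3.99 in wild type. On it wild-type replicate 1 was the highest array, and wild-type replicate 2 lay within the knockout range.

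The other 16 ligands were dim and showed little between genotypes: *Fgf1*, *Fgf3*, *Fgf4*, *Fgf6*, *Fgf8*, *Fgf9*, *Fgf11*, *Fgf12*, *Fgf15*, *Fgf16*, *Fgf17*, *Fgf18*, *Fgf20*, *Fgf21*, *Fgf22* and *Fgf23*. With *Fgfr3* and *Fgfr4* they made 18 members whose array values all lay between 3.48 and 6.25. Their differences lay between −0.27 and 0.13, with 5 above 0 and 13 below, and the genotypes overlapped for all 18. Of the 22 ligands only *Fgf7* and *Fgf10* had a mean of at least 6, a share of 9.09% against 58.4% of all genes. At such low values the array cannot show whether a ligand is absent or weakly expressed.

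Among the receptors, *Fgfr2* was higher in knockout. Its level was 8.35, 8.90 and 8.82 on the knockout arrays and 7.23, 7.84 and 7.66 on the wild-type arrays. Every knockout value exceeded every wild-type value, and in each genotype replicate 1 was the lowest array. The difference was 1.11 ± 0.24 (SE), a level 2.16-fold higher in knockout, with an unadjusted p of 0.0036, rank 53 of all genes, and an adjusted p of 0.743 by limma. By replicate number it was 1.12, 1.05 and 1.16, close to equal in the 3. The other probe sets differed by 0.56 (levels of 6.02, 7.20 and 6.96 in knockout and 6.14, 6.37 and 5.99 in wild type) and by 0.31. On the first of these knockout replicate 1 lay within the wild-type range. The splice forms of *Fgfr2* that bind different ligands were not told apart here.

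*Fgfr1*, the main FGF receptor of fibroblasts, had levels of 10.88, 10.95 and 10.97 in knockout and 10.81, 10.05 and 10.93 in wild type. The 5 arrays other than wild-type replicate 2 lay within a narrow band, and the groups overlapped. The difference of 0.33 ± 0.26 (SE; limma adjusted p = 0.891) was 0.06 without that array, and the 2 other probe sets of *Fgfr1* each differed by less than 0.01 (−0.0026 for the lower). The probe set at −0.0026 had levels of 6.54, 8.45 and 8.97 in knockout and 8.23, 7.60 and 8.13 in wild type. Its knockout replicate 1 lay below all wild-type arrays and knockout replicates 2 and 3 above them, so its value near 0 averages opposite directions. *Fgfrl1*, a receptor that lacks the kinase domain, had levels of 9.55, 8.69 and 8.71 in knockout and 9.75, 8.80 and 9.16 in wild type. Replicate 1 was again the highest array of each genotype, and the difference was −0.25 ± 0.35 (SE). Its second probe set gave −0.97, with levels of 8.48, 6.44 and 6.42 in knockout and 8.88, 7.30 and 8.09 in wild type. *Fgfr3* and *Fgfr4*, known best from cartilage and from muscle and liver, differed by 0.01 ± 0.18 and −0.16 ± 0.16 (SE).

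**Figure D2:**
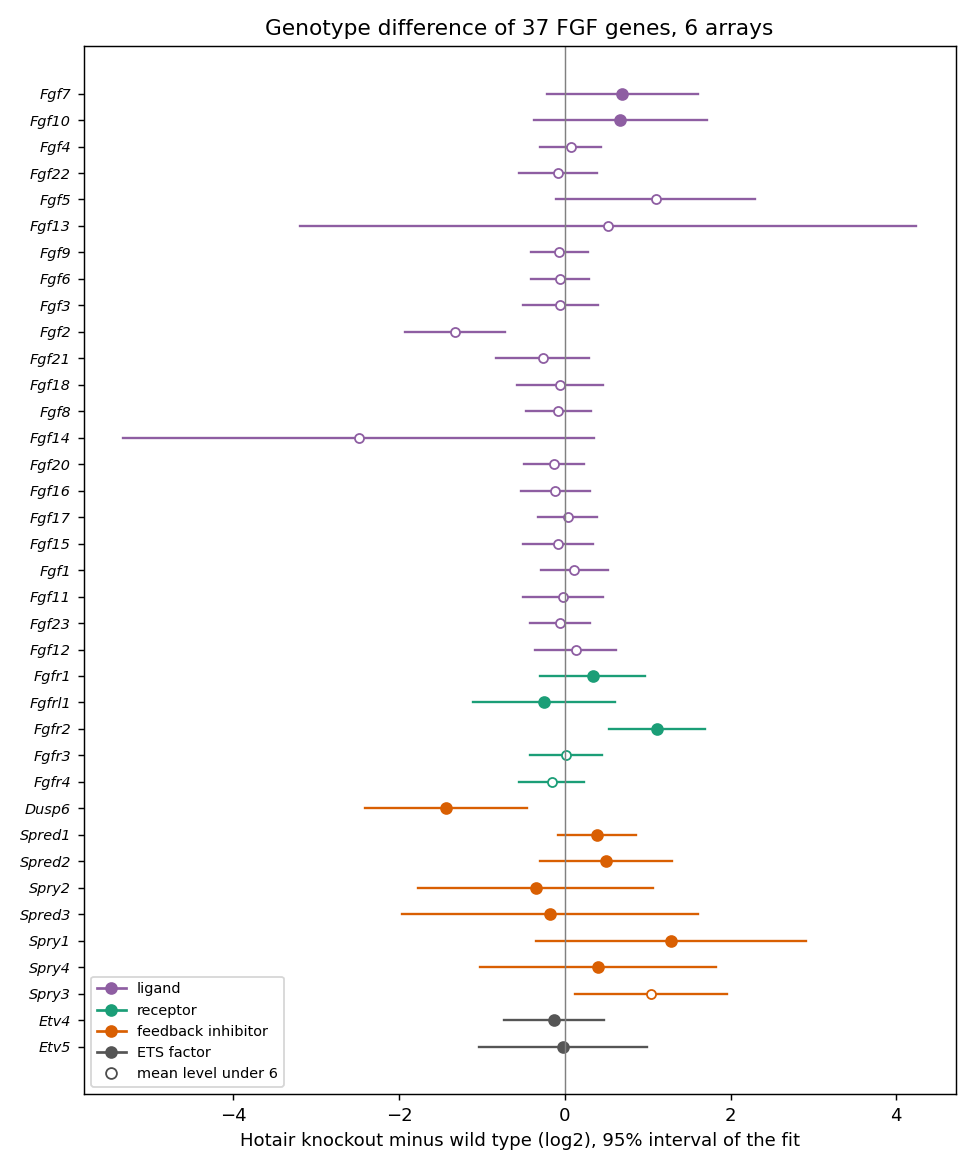
Difference in level (knockout minus wild type, log2) of all 37 members with the 95% interval of the limma fit over 6 arrays, by role. Open points have a mean level under 6. The intervals of *Fgf2* (−1.92 to −0.72), *Fgfr2* (0.53 to 1.69), *Dusp6* (−2.41 to −0.45) and *Spry3* (0.12 to 1.96) do not reach 0 before adjustment for the number of genes.

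The feedback inhibitors went different ways. *Dusp6*, the phosphatase of ERK, had levels of 10.30, 9.54 and 9.54 on the knockout arrays and 10.89, 10.79 and 11.99 on the wild-type arrays. The groups did not overlap, and the highest knockout value was on replicate 1. The difference was −1.43 ± 0.40 (SE), a level 2.70-fold lower in knockout, with an unadjusted p of 0.012 and an adjusted p of 0.743 by limma. It was −0.59, −1.25 and −2.45 by replicate number, and −1.05 without wild-type replicate 3.

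The Sproutys, which block RAS and RAF activation below the receptor, lay on both sides of 0. *Spry1* had levels of 7.12, 8.60 and 8.72 in knockout and 8.0, 5.96 and 6.64 in wild type. Knockout replicates 2 and 3 were above all wild-type arrays, but within replicate 1 the order was turned round, so the differences by replicate number were −0.88, 2.64 and 2.08. Over all arrays the difference was 1.28 ± 0.66 (SE; limma adjusted p = 0.786), and 0.83 without wild-type replicate 2. *Spry3* was dim, with levels of 4.35, 5.13 and 5.14 in knockout and 4.51, 3.43 and 3.57 in wild type. It repeated the pattern of *Spry1*, with differences of −0.16, 1.71 and 1.58 by replicate number, and stood at 1.04 ± 0.37 (SE; unadjusted p = 0.033, adjusted p = 0.743 by limma). *Spry4* had levels of 7.48, 7.88 and 7.72 in knockout and 8.16, 5.96 and 7.76 in wild type. Only wild-type replicate 2 was low, and the difference of 0.40 ± 0.58 (SE) became −0.27 without it. *Spry2* had levels of 9.32, 8.38 and 9.21 in knockout and 9.39, 8.23 and 10.36 in wild type. Here wild-type replicate 3 was the highest array, and the difference was −0.35 ± 0.58 (SE) with that array and 0.16 without it.

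The Spreds, membrane proteins related to the Sproutys that also hold back RAF, were measured well above the array median. *Spred1* had levels of 10.29, 10.42 and 10.42 in knockout and 9.65, 10.04 and 10.27 in wild type. The groups were just separate, by 0.02 between knockout replicate 1 and wild-type replicate 3, and the difference was 0.39 ± 0.19 (SE; limma adjusted p = 0.776), and 0.22 without wild-type replicate 1. On every other probe set of *Spred1* the groups overlapped. The brightest of these had levels of 9.50, 9.39 and 9.48 in knockout and 8.24, 9.02 and 9.97 in wild type. *Spred2* had levels of 9.91, 10.53 and 10.58 in knockout and 9.82, 9.35 and 10.37 in wild type, which overlapped, and differed by 0.50 ± 0.32 (SE). The difference was 0.25 without wild-type replicate 2 and 0.76 without wild-type replicate 3. Its 4 other probe sets differed by 0.02 to 0.06. The brightest of these had levels of 8.16, 8.22 and 8.45 in knockout and 7.62, 7.68 and 9.37 in wild type. Its value near 0 averages opposite directions, with knockout higher within replicates 1 and 2 and lower within replicate 3. *Spred3* had levels of 9.05, 7.10 and 7.16 in knockout and 9.11, 7.18 and 7.56 in wild type. Like *Fgf13* it was high on replicate 1 of both genotypes, by 1.91 in knockout and 1.74 in wild type over the mean of the 2 other arrays, and its genotype difference was −0.18 ± 0.73 (SE).

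*Etv4* and *Etv5*, ETS transcription factors that FGF signalling induces in limb and lung, did not separate the genotypes. *Etv4* had levels of 8.28, 8.77 and 8.64 in knockout and 9.12, 8.41 and 8.55 in wild type. *Etv5* had levels of 8.28, 7.89 and 8.63 in knockout and 8.85, 7.45 and 8.56 in wild type. The groups overlapped for both, and for *Etv5* the wild-type arrays spanned the whole knockout range. The differences were −0.13 ± 0.25 and −0.02 ± 0.41 (SE), with 95% intervals of −0.73 to 0.48 and −1.03 to 0.99. Within replicate 1 both were lower in knockout (−0.83 and −0.57), and within replicates 2 and 3 both were higher (0.36 and 0.09 for *Etv4*, 0.44 and 0.07 for *Etv5*).

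Without replicate 1 of both genotypes, an alternative chosen with earlier results of these data known, 8 of the 37 members passed over all genes. In this fit of 4 arrays limma called 14% of all genes, 7.56% higher and 6.41% lower, and 21.6% of the members. Among genes with a mean of at least 6 it called 21.9%, and 21.4% of the members with such a mean. *Spry1* rose by 2.36 ± 0.25 (SE; adjusted p = 0.0098), *Spry3* by 1.64 ± 0.15 (adjusted p = 0.0070), *Fgf5* by 1.38 ± 0.17 (adjusted p = 0.012), *Fgfr2* by 1.11 ± 0.15 (adjusted p = 0.015) and *Fgf13* by 1.03 ± 0.18 (adjusted p = 0.025). *Fgf2* fell by 1.48 ± 0.22 (adjusted p = 0.017), *Dusp6* by 1.85 ± 0.40 (adjusted p = 0.040) and *Fgf14* by 3.69 ± 0.65 (adjusted p = 0.026). For *Fgfr2* the difference was the same with and without replicate 1, while for *Spry1*, whose sign was opposite in replicate 1, it was larger without it. In these 4 arrays 4 of 12 fibroblast markers rose as well, 1 of 9 keratinocyte (*Dsp*), 1 of 9 skeletal muscle (*Acta1*), 1 of 8 cartilage (*Sox5*) and 1 of 9 leukocyte markers (*Cd14*) fell, and *Thy1*, a surface protein of fibroblasts, measured 11.71, 10.54 and 10.28 in knockout and 12.15, 4.65 and 7.17 in wild type. With weights for array quality, limma called 7 members, the same as above without *Fgf13*, where 11.5% of all genes were called. Without knockout replicate 1 alone it called 0 members and 0.478% of all genes, and *Fgf2* and *Fgfr2* came nearest (adjusted p = 0.065 and 0.087).

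**Figure D3:**
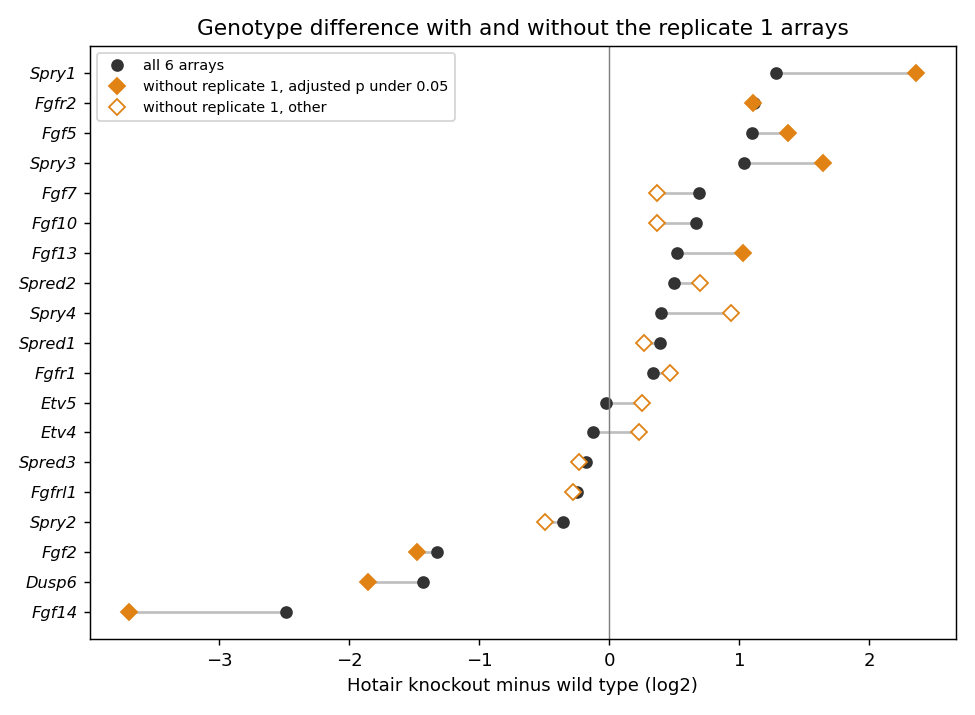
Difference in level (knockout minus wild type, log2) of the 19 members shown by array, over all 6 arrays (circles) and over the 4 arrays of replicates 2 and 3 (diamonds, filled where limma's adjusted p was under 0.05). *Fgfr2* stays at 1.11, *Spry1* moves outward to 2.36 and *Etv4* and *Etv5* cross 0.

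Several members stood apart on replicate 1 whatever the genotype. For 7 of the 37 members both replicate 1 arrays lay above the 4 other arrays (*Fgf5*, *Fgf13*, *Fgf16*, *Fgf22*, *Fgfr3*, *Fgfrl1* and *Spred3*), a share of 18.9% against 24.6% of all genes. For 0 members did both lie below, against 12.5% of all genes. Of the 7 genes, *Fgf13* exceeded the mean of the 2 other arrays of its genotype by 3.02 in knockout and 4.55 in wild type, and *Fgf16*, *Fgf22* and *Fgfr3* by at most 0.51.

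Where a gene had several probe sets, those with a mean level of at least 6 mostly pointed the same way. All 6 such probe sets of *Spred1* were above 0 (0.04 to 0.43), as were all 5 of *Spred2*, both of *Fgf7* (0.69 and 0.40), both of *Fgfr2* and both of *Spry4* (0.40 and 0.16). For *Spred1* only the probe set used separated the genotypes. Both of *Spry2* (−0.35 and −0.49), of *Fgfrl1*, of *Etv4* and of *Etv5* were below 0. *Fgfr1* was the exception, with 2 of 3 above 0 and mean differences near 0 for all but the one used. *Fgf2*, *Dusp6*, *Spry1* and *Spry3* have 1 probe set each, so their values have no such check.

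**Figure D4:**
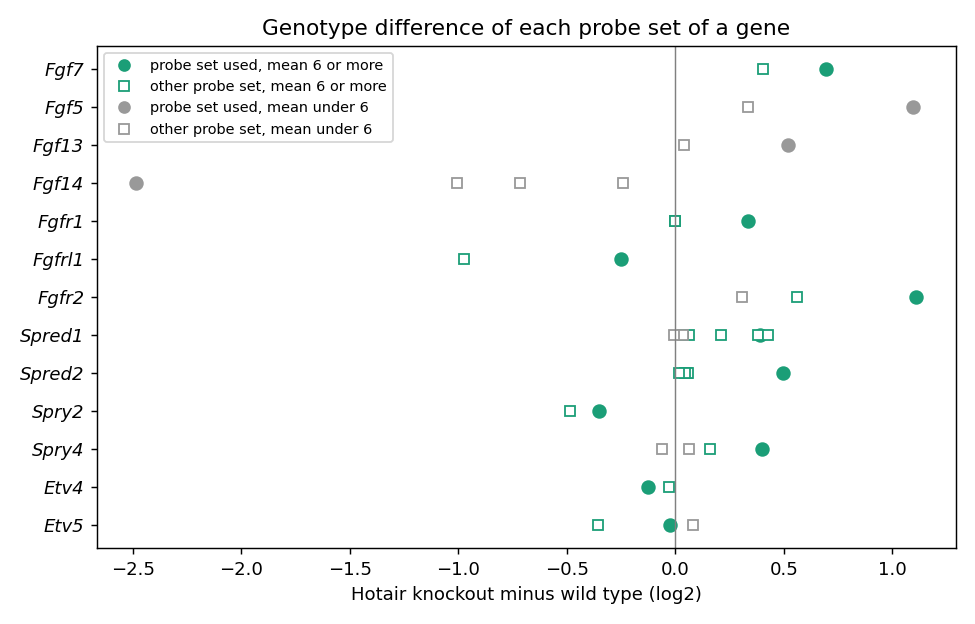
Difference in level (knockout minus wild type, log2) of every probe set of the members shown by array that have more than 1. Filled circles are the probe sets used and open squares the others; grey marks a mean level under 6. The mean differences of the 4 probe sets of *Fgf14* (−2.49 to −0.24) and the 3 of *Fgfr2* (0.31 to 1.11) keep 1 direction. Those of *Fgfr1* other than the one used lie within 0.01 of 0.

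The start site windows of a ligand, a receptor and a pair of feedback inhibitors were compared, because these genes moved in different directions without replicate 1: *Fgf2* and *Dusp6* fell, and *Fgfr2* and *Spry1* rose. Each window holds 250 bases before and 50 after a gene's start, from RefSeq on GRCm38.p6, 5′ to 3′ on the gene's own strand. Capitals mark CGGAA, 1 form of the ETS binding sequence, on either strand, written TTCCG where it lies on the other strand. The windows are chr3:37348403-37348702 (plus strand, *Fgf2*), chr10:99262981-99263280 (plus strand, *Dusp6*), chr7:130266759-130267058 (minus strand, *Fgfr2*) and chr3:37639697-37639996 (plus strand, *Spry1*).
Fgf2: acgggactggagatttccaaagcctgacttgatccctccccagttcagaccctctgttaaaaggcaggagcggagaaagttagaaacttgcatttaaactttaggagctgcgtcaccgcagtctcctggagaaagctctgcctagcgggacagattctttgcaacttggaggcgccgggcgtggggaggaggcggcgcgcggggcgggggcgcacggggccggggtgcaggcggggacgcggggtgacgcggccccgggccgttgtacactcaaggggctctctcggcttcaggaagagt
Dusp6: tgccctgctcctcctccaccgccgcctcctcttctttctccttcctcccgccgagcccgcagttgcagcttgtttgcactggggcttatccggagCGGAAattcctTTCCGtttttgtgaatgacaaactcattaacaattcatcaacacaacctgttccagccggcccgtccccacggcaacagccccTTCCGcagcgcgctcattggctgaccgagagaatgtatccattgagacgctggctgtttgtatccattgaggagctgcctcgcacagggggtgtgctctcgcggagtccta
Fgfr2: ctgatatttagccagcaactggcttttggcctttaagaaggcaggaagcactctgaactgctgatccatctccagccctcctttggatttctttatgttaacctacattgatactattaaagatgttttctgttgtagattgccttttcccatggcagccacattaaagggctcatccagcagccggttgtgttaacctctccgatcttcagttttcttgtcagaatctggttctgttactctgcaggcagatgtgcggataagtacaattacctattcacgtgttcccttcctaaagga
Spry1: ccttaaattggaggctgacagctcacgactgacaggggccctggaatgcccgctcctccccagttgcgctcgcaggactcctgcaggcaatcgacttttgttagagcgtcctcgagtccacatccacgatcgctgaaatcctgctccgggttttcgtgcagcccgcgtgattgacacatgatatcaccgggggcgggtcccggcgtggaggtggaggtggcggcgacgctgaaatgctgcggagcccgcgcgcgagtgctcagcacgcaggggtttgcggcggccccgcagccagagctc

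The *Dusp6* window held 3 matches to CGGAA, and those of *Fgf2*, *Fgfr2* and *Spry1* held 0. ETS factors, among them *Etv4* and *Etv5*, bind sequences built on the shorter core GGAA. That core was not counted, and the windows of *Fgf2*, *Fgfr2* and *Spry1* contain it too. CGGAA occurs at least once in 29.9% of all 32851 windows. The AP-1 motif TGANTCA, the binding sequence of FOS and JUN proteins, was in 0 of the 4 windows and in 7.81% of all. Neither motif contains the other, and a match describes letters only. The *Fgf2* and *Spry1* windows are rich in CpG pairs (24 and 29), *Dusp6* has 19 and *Fgfr2* has 4, where the median window has 7. Entries were found for 27 of the 37 members. Of their 35 windows, a gene having up to 4, 12 held CGGAA and 2 the AP-1 motif.

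Genes that carry the signal from the receptors onward lay on both sides of 0. Of 16 measured adaptor, RAS, RAF, MEK and ERK genes 0 passed over all genes, 8 lay above 0 and 8 below, and the median difference was −0.01, against 0.01 for all genes. *Plcg1*, the phospholipase that binds activated FGF receptors, had levels of 9.75, 9.91 and 9.33 in knockout and 9.44, 8.47 and 8.62 in wild type (0.82 ± 0.31, SE). *Sos2*, an exchange factor for RAS, had levels of 7.55, 6.62 and 6.15 in knockout and 7.27, 8.32 and 8.52 in wild type (−1.26 ± 0.48). The groups overlapped for both genes. *Sos1* stood at 0.70 ± 0.31 and *Map2k1*, which codes for MEK1, at −0.68 ± 0.38. Without replicate 1, *Plcg1* rose by 1.07 (limma adjusted p = 0.042), the adaptor *Shc1* rose by 0.89 (adjusted p = 0.049) and *Sos2* fell by 2.03 (adjusted p = 0.0092). They make 18.8% of the list, against 14% of all genes. All 16 genes of the list had a mean of at least 6, and of all genes with such a mean 21.9% were called, a larger share than in the list.

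Genes known to be induced by ERK, other than the members, lay mostly below 0. Of 14 measured, 13 were below 0 and 1 above, with a median difference of −1.06, and 0 passed over 6 arrays. *Plaur*, the urokinase receptor, had levels of 10.71, 8.72 and 9.16 in knockout and 11.81, 10.86 and 11.43 in wild type. *Ier2*, an immediate early gene, had levels of 9.82, 10.09 and 10.08 in knockout and 10.65, 10.68 and 11.18 in wild type. In both genes the groups were separate, and the differences were −1.84 ± 0.56 and −0.84 ± 0.20 (SE; limma adjusted p = 0.743 for each). *Dusp4*, a nuclear relative of *Dusp6*, was the 1 gene above 0 (0.30 ± 1.33). By replicate number the median of the 14 genes was −0.34, −0.64 and −2.18. Without replicate 1, 5 of them, or 35.7%, fell (*Egr1*, *Phlda1*, *Hbegf*, *Plaur* and *Epha2*), and 0 rose, against 6.41% of all genes lower. All 14 had a mean of at least 6, and of all genes with such a mean 21.9% were called in either direction. *Dusp6* thus stood on the side of these ERK-induced genes and *Spry1* and *Spry3* on the other. Immediate early genes were already known to be lower in these data when the list was written, so this direction is no independent evidence.

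The sugars and proteoglycans that hold FGFs at the cell surface differed gene by gene. The 24 measured genes were split evenly, 12 above 0 and 12 below, around a median of −0.05, and 0 passed over 6 arrays. *Hs6st1*, which adds sulfate to heparan chains, had levels of 8.29, 9.09 and 9.07 in knockout and 8.09, 7.48 and 7.89 in wild type. The groups were separate, and the difference was 1.0 ± 0.29 (SE). *Gpc6*, a glypican, was likewise separate (9.48, 9.73 and 9.52 in knockout, 9.21, 8.11 and 8.69 in wild type; 0.91 ± 0.30). *Sulf1*, an enzyme that removes these sulfates and so weakens FGF signalling, had levels of 9.93, 6.67 and 6.75 in knockout and 9.53, 11.49 and 10.45 in wild type. It was low only on knockout replicates 2 and 3 (−2.71 ± 1.01 over all arrays), and its relative *Sulf2* stood at −1.02 ± 0.52. Without replicate 1, 5 genes of this list rose, *Hs6st1* and *Gpc6* among them, and 3 fell, *Sulf1* and *Sulf2* among them. They make 33.3% of the list, against 14% of all genes and 21.9% of all genes with a mean of at least 6. Of the list 79.2% had such a mean. The klothos *Kl* and *Klb*, needed by hormonal FGFs, stayed under 6 on every array.

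Among other modulators of FGF signalling, which include receptor partners, proteins that bind the ligands and the phosphatase *Dusp1*, 16 were measured, *Sulf1* and *Sulf2* again among them. Of these 3 had differences above 0 and 13 below, the median was −0.14, and 0 passed over 6 arrays. *Il17rd*, an antagonist of FGF signalling also called Sef, had levels of 6.90, 7.97 and 8.08 in knockout and 6.54, 6.32 and 6.73 in wild type. *Flrt1*, a membrane protein that binds FGF receptors, had levels of 8.10, 8.52 and 8.30 in knockout and 7.07, 7.15 and 7.36 in wild type. Both separated the genotypes on all 6 arrays, with differences of 1.12 ± 0.35 and 1.11 ± 0.17 (SE; limma adjusted p = 0.743 for each). *Cdh2*, N-cadherin, had levels of 10.91, 8.82 and 9.03 in knockout and 10.69, 11.68 and 11.94 in wild type, with a difference of −1.85 ± 0.64. As with *Sulf1*, knockout replicate 1 sat with the wild-type arrays. Without replicate 1, *Il17rd* and *Flrt1* rose (1.5 and 1.15; limma adjusted p = 0.012 and 0.017) and *Cdh2* fell by 2.89 (adjusted p = 0.0048), as did *Sulf1* and *Sulf2*. They make 31.2% of the list, against 14% of all genes and 21.9% of all genes with a mean of at least 6. Of the list 93.8% had such a mean.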

How the data were processed

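Biotin-labelled RNA made from total RNA with a 3′ IVT Express kit was hybridised to Affymetrix whole-genome mouse arrays, 1 for each of 6 samples, per the labels' protocols. The deposited log2 values come from RMA under R version 2.11.1, according to the submitters' processing notes. It equalises intensity distributions, so a change in total RNA cannot be seen, and it compresses differences of dim probe sets. Which annotation package was used is not stated in the labels. A mean level under 6 was taken as dim, since detection calls were not analysed here.

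Of 45101 probe sets 34945 had 1 gene in the platform table, and only these were used. All 37 members matched the GRCm38.p6 gene table by Entrez identifier, with 0 symbols changed. Each gene was fitted with limma 3.58.1 (R 4.3.3, lmFit and eBayes) on genotype alone, p-values were adjusted over all genes by Benjamini-Hochberg, and the script was tested on simulated data. The number of arrays limits the precision, and an exact permutation test of 3 against 3 arrays cannot go below 0.1.

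Arrays of the same replicate number deviated together (r of 0.50, 0.49 and 0.25 over probe sets), so by a rule of over 0.1 in every pair the numbers were taken as pairs and the block run as an alternative. Wild-type replicate 3 correlated better with knockout replicate 2 (0.33) than with its own number. The deviations were taken from the mean of 3 arrays and sum to 0 within a genotype. With replicate 1 apart in both genotypes, the rule therefore cannot show that replicates 2 and 3 are paired by number. Members with a mean of at least 6 or a difference of at least 0.5 were given array by array. From each pathway list the 2 genes of smallest p in each direction with a mean of at least 6 were named. *Thy1*, the other markers and the list genes called without replicate 1 were named after their values were seen. Members, lists and alternatives were chosen with earlier results of these data known.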

Additional observations from a re-analysis of the deposited data

How the results depend on the processing

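Over all genes limma called 0 genes and 0 members over 6 arrays, and also with the replicate block, an intensity trend in the prior, arrays centred on their medians, dim genes left out, the mean of a gene's probe sets, no _x_at or _s_at probe sets, all probe sets or an ordinary equal-variance test. With the replicate block 2017 genes had an unadjusted p under 0.05, against 1216 without it, and the members at that threshold were 5, against 4. Leaving out 1 array gave 0 to 87 genes, 0 members, and 3 to 7 members at an unadjusted p under 0.05, the highest without wild-type replicate 1 and the 87 genes without knockout replicate 1. Without replicate 1 of both genotypes limma called 2542 genes and 8 members (8 at an unadjusted p under 0.05), and with array weights 2101 genes and 7 members (12). Among genes with a mean of at least 6, 2 members of 14 had an unadjusted p under 0.05. Of the 19 members given array by array, 11 kept their direction in every alternative that included them, *Fgf2*, *Fgfr2*, *Dusp6*, *Spry1* and *Spry3* among them, and 5 (*Fgf2*, *Fgf5*, *Fgf13*, *Fgf14* and *Spry3*) are among the dim genes that one alternative leaves out. The exceptions were near 0 or spread widely. With array weights *Spry2* was at 0.16, *Etv4* at 0.18 and *Etv5* at 0.58, without replicate 1 of both genotypes *Etv4* was at 0.23 and *Etv5* at 0.25, and without _x_at or _s_at probe sets *Fgfr1* was at −0.0026. Leaving out 1 array moved *Fgf13* between −0.49 and 2.04, *Fgfrl1* between −0.53 and 0.0049, *Spry2* between −0.90 and 0.16, *Spred3* between −0.81 and 0.40, *Spry4* between −0.27 and 0.83, *Etv4* between −0.27 and 0.087 and *Etv5* between −0.44 and 0.26. The cause was not tested. Signal near background limits the members with a mean under 6, and 3 arrays a genotype limit all.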
